A study of Mus musculus with 2 samples.

Results

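Mixed neighbourhoods are stretches of the genome where p300 binding was listed in the embryonic heart at some sites and in the embryonic midbrain at other sites close by, with no site in common between the peaks concerned. They hold 862 of the 6383 peaks in the deposited lists. Of these, 442 are heart peaks (12.3% of the 3597 peaks listed in the heart) and 420 are midbrain peaks (15.1% of the 2786 listed in the midbrain). A member is a peak that overlaps no peak of the other list, has a peak of the other kind within 50 kb between midpoints, and does not belong to a chain of 5 or more peaks of its own list. p300 was immunoprecipitated from the heart and from the midbrain of mouse embryos (CD-1 strain, embryonic day 11.5), and the recovered DNA was sequenced as 36 bp reads. Each tissue is 1 library of material pooled from about 150 embryos of both sexes, with no genetic change or treatment named for either, so no difference between the tissues has a replicate check and no test between them was made. How the hearts were dissected is left unsaid in the labels, and each pool mixes the cell types of its organ, so fewer cells of a type and less p300 per cell cannot be told apart. With 1303861 aligned reads from heart and 5869671 from midbrain, the midbrain was sequenced 4.50 times as deeply. Scaled to reads per 1000000 aligned reads (rpm), 1 heart read counted 0.767 and 1 midbrain read 0.170.

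p300 is a histone acetyltransferase and a coactivator of transcription. It is brought to enhancers by transcription factors that bind DNA, which is why p300 peaks in a tissue are widely used as a map of its active enhancers. A developmental gene is often controlled by several enhancers spread over its flanks and introns, each active in its own organ, so sites used in different organs can lie side by side around 1 gene. An enhancer need not act on the nearest gene, and sites that lie close together need not share a target.

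The members were selected on the deposited peak positions alone, which were made from these reads, so their number and their closeness to the other tissue's peaks are description. After the 154 heart and 155 midbrain peaks that overlap the other list were set aside, 3443 heart-only and 2631 midbrain-only peaks were left. A peak of the other kind lay within 50 kb of 493 heart-only and 465 midbrain-only peaks, and 51 and 45 of these were dropped because they stood in dense chains of their own list. The members are thus 12.8% of the heart-only and 16.0% of the midbrain-only peaks. For 10 heart and 16 midbrain members, every opposite peak in reach stood in such a dense chain and is no member itself. At the edge of the rule, the last heart member (chr12:80957474-80958029, mm9) lay 49.3 kb from its midbrain neighbour and held 6 heart reads and 0 midbrain reads. The first heart peak outside (chr11:96687257-96688003) lay 50.1 kb away and held 5 heart and 2 midbrain reads. The last midbrain member (chr6:30624561-30625105) lay 49.9 kb from a heart peak with 13 midbrain and 2 heart reads, and the first midbrain peak outside (chr11:96736784-96738671) lay 50.1 kb away with 40 midbrain and 5 heart reads.

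Members and the opposite peaks in their reach were joined into neighbourhoods wherever a heart and a midbrain peak lay within 50 kb of each other. This gave 330 neighbourhoods with a summed span of 10.8 Mb and a median span of 31.7 kb (quartiles 16.9 and 43.8 kb). The commonest form was the plain pair: 186 neighbourhoods (56.4%) were made of 1 heart and 1 midbrain peak. A further 76 held 3 peaks, 42 held 4 and 26 held 5 or more, up to 10 members. Within the 76 triplets, 44 had a surplus heart peak and 32 a surplus midbrain peak. The odd peak stood between the other two in 30 triplets and at an end in 46. Among all 144 neighbourhoods of 3 or more peaks, 76 fell into a heart block beside a midbrain block with a single change of tissue along the chromosome, and 68 changed tissue 2 or more times. Of the 68 neighbourhoods with 4 or more peaks, 3 alternated at every step.

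**Figure D1:**
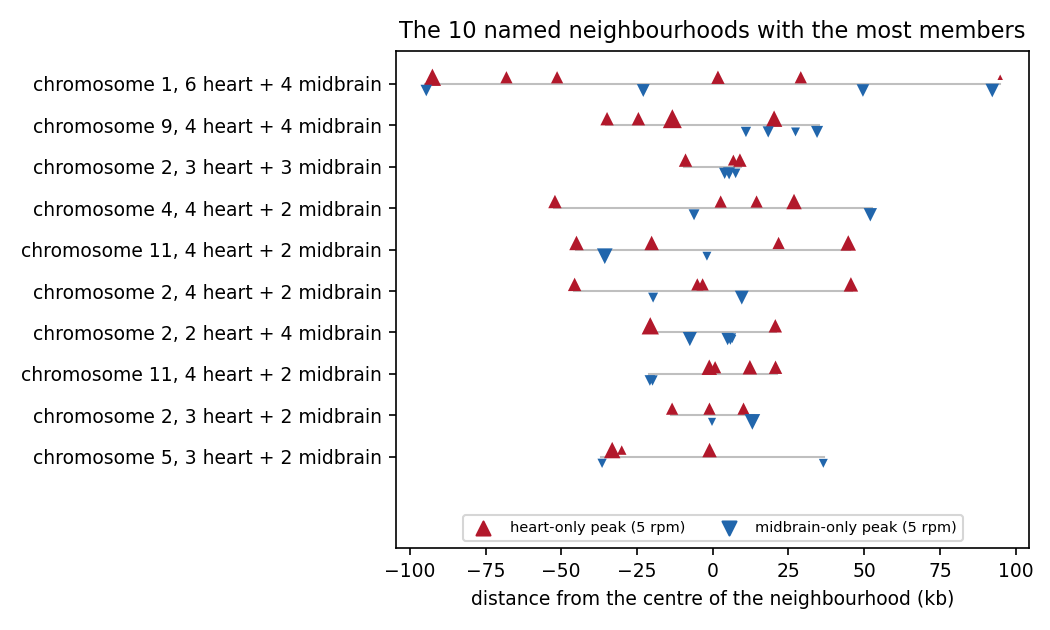
Members of the 10 named neighbourhoods with the most members, drawn by distance from the neighbourhood's centre in kb (x axis), 1 neighbourhood per line. Upward triangles are heart-only peaks and downward triangles midbrain-only peaks, with area in proportion to the rpm of the peak's own library, and the grey line is the span, 190.0 kb for the chromosome 1 neighbourhood at the top.

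Steps between peaks of 1 tissue were shorter than steps between tissues, which the way neighbourhoods are joined sets in part. Within neighbourhoods, 97 steps led from a heart peak to the next heart peak with a median of 8.47 kb (quartiles 3.38 and 17.1 kb), and 82 led from a midbrain peak to the next midbrain peak with a median of 5.80 kb (quartiles 1.39 and 12.9 kb). The 420 steps between a heart and a midbrain peak had a median of 19.6 kb (quartiles 7.79 and 31.6 kb). The rule bounds these values unequally, since it asks for an opposite peak within 50 kb and removes dense chains of the own list. The 186 plain pairs give only steps between tissues. A step within 1 tissue occurs only in a neighbourhood of 3 or more peaks, so nothing about the tissues is read from the difference. Some steps joined peaks that almost touch: 25 of 68 steps between midbrain members (36.8%) had a gap under 1 kb, against 9 of 81 between heart members (11.1%) and 25 of 383 between a heart and a midbrain member (6.53%). Whether adjacent entries are separate sites or pieces of 1 broad site was not tested.

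The nearest opposite peak lay at a median of 21.2 kb from a heart member (quartiles 8.84 and 34.1 kb) and 19.3 kb from a midbrain member (quartiles 8.05 and 32.9 kb). The smallest distance was 0.533 kb. It was at most 5 kb for 66 heart members (14.9%) and 73 midbrain members (17.4%), and at most 1 kb for 13 and 12. The opposite peak was nearer than any peak of the own list for 309 heart members (69.9%) and 303 midbrain members (72.1%). In their own list, 224 heart members (50.7%) and 236 midbrain members (56.2%) had no other peak within 50 kb, against 60.4% of all heart-only and 62.8% of all midbrain-only peaks outside dense chains.

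**Figure D2:**
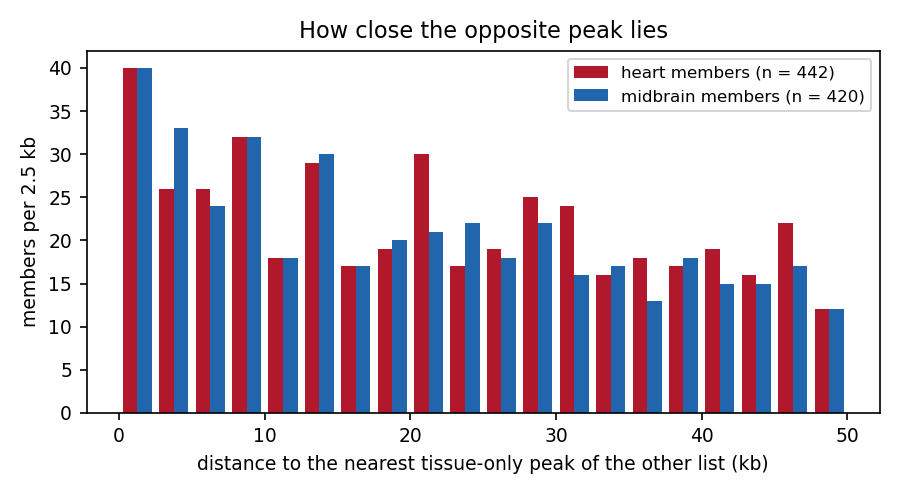
Number of members (y axis) by distance to the nearest tissue-only peak of the other list (x axis, kb, steps of 2.5 kb), for 442 heart and 420 midbrain members. The first step, up to 2.5 kb, held 40 heart and 40 midbrain members, and members were found at all distances up to the 50 kb bound.

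The neighbourhood with the most members lay at chr1:170216364-170406361 (mm9) and held 6 heart and 4 midbrain members over 190.0 kb. Along the chromosome it ran midbrain, 3 heart, midbrain, 2 heart, 2 midbrain and heart, with 5 changes of tissue, and a peak common to both lists lay within it. Its heart members together held 32 heart and 17 midbrain reads, so that rpm was 8.47 times as high in the heart library (95% interval 4.57 to 16.3). Its midbrain members together held 97 midbrain and 10 heart reads, so that rpm was 2.15 times as high in the midbrain library (interval 1.12 to 4.64). The first midbrain member (170216364 to 170217264, 20 midbrain and 2 heart reads) and the first heart member (170218346 to 170219327, 10 heart and 8 midbrain reads) lay 2.02 kb apart. The last change of tissue rests on a heart member (170406164 to 170406361) with 1 heart read and no midbrain read. The interval of its ratio included 1 (lower bound 0.115), as did that of each midbrain member taken alone. All intervals here and below are exact binomial intervals at 95% and cover counting error only.

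The next was at chr9:61163335-61233507, with 4 heart and 4 midbrain members over 70.2 kb. Its first 3 members were heart peaks, and the closest opposite peaks were 1.94 kb apart. Its heart members together took 33 heart and 16 midbrain reads, 9.28-fold in favour of heart (interval 4.97 to 18.1). Its midbrain members took 69 midbrain and 7 heart reads, 2.19-fold in favour of midbrain (interval 1.01 to 5.65). Its best-ranked member, a heart peak of rank 173 (the authors' rank in its list, 1 being the best) at 61184557 to 61185640, held 12 heart and 3 midbrain reads. Much tighter was the neighbourhood at chr2:170030973-170049604, where 3 heart and 3 midbrain members shared 18.6 kb in the order heart, 2 midbrain, heart, midbrain, heart. There the heart members took 16 heart and 14 midbrain reads (5.14-fold in favour of heart, interval 2.35 to 11.4). The midbrain members took 55 midbrain and 3 heart reads (4.07-fold in favour of midbrain, interval 1.32 to 20.4).

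Blocks and nested orders both occurred among the other large neighbourhoods. At chr2:26330379-26372311, 4 midbrain members lay between 2 heart members, with 83 midbrain and 7 heart reads at the inner peaks and 16 heart and 8 midbrain reads at the outer ones. At chr5:65195816-65269411 the order was the opposite, 3 heart members between 2 midbrain members, with 19 heart and 7 midbrain reads at the inner and 25 midbrain and 1 heart reads at the outer peaks. At chr11:87952857-87995038, 2 midbrain members were followed by 4 heart members with a single change of tissue. The remaining 4 lay at chr4:8573565-8678482, chr11:11711690-11802235, chr2:30522381-30614238 and chr2:13293911-13321420. Of these 10, 8 held 6 or more members. The 2 with 5 members, chr5:65195816-65269411 and chr2:13293911-13321420, were taken from a larger number with 5 for having the closest opposite members. Over these 10 neighbourhoods the heart over midbrain ratio of the summed heart members ran from 2.5 to 12.2, and each of its intervals lay above 1. The midbrain over heart ratio of the summed midbrain members ran from 0.907 to 5.55, and its interval lay above 1 in 6 of the 10.

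Reads at the members were then counted in both libraries, to see how far the tissues part within these regions. Heart members held a median of 6 heart reads (quartiles 5 and 7, range 1 to 16) and a median of 3 midbrain reads (quartiles 2 and 5, range 0 to 18). Midbrain members held a median of 16 midbrain reads (quartiles 12 and 22, range 5 to 84) and a median of 1 heart read (quartiles 0 and 2, range 0 to 12). On the common scale heart members averaged 4.71 rpm of heart and 0.597 rpm of midbrain reads, and midbrain members averaged 3.31 rpm of midbrain and 1.04 rpm of heart reads. No midbrain read fell in 47 heart members (10.6%) and no heart read in 154 midbrain members (36.7%), where a count of 0 allows up to 3 reads, or 0.511 rpm for midbrain and 2.30 rpm for heart reads. The lists were made from these same reads, so the own-tissue excess is built into them.

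**Figure D3:**
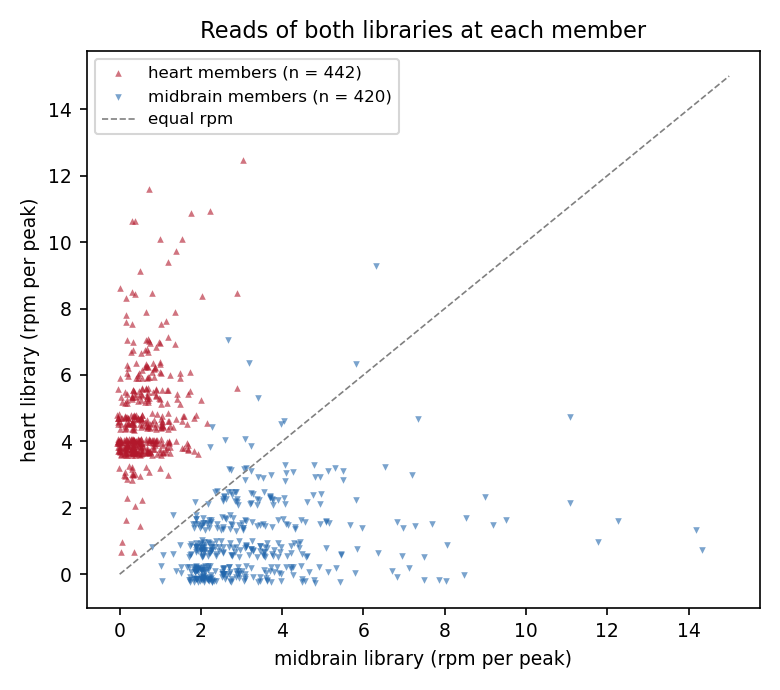
Library-scaled reads at each member, midbrain library (x axis, rpm per peak) against heart library (y axis, rpm per peak), with small random offsets so that equal counts do not hide each other. The heart members (442, upward triangles) lie above the dashed line of equal rpm, and 20 of the 420 midbrain members (downward triangles) have at least as many rpm in the heart library as in the midbrain library before the offsets.

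Summed over all heart members, rpm was 7.89 times as high for heart as for midbrain reads (interval 7.41 to 8.40). Summed over all midbrain members, it was 3.20 times as high for midbrain as for heart reads (interval 2.94 to 3.49). Peak by peak, the interval of the ratio lay wholly on the heart side at 394 heart members (89.1%), where 92.4% of all heart-only peaks did so. It lay on the midbrain side at 64 midbrain members (15.2%), where 22.7% of all midbrain-only peaks did so. The rule used these lists, so nothing further is read from the counts. No member had an interval on the side of the other tissue, and no other heart-only or midbrain-only peak did either. The shares depend on depth: after random thinning of the midbrain library to as many reads as the heart library, 32.4% of heart members and 11.7% of midbrain members had an interval on their own side. At that depth the shares over all heart-only and midbrain-only peaks were not computed. The 92.4% and 22.7% at full depth are no baseline for the thinned values. Summing the members of a neighbourhood gave more reads, and in 72 of the 312 neighbourhoods with members of both tissues (23.1%) the heart members lay on the heart side and the midbrain members on the midbrain side.

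The other tissue's reads were more frequent at members than at isolated peaks, which have no listed peak of either kind within 50 kb. The 1691 isolated heart-only peaks had a 9.88-fold excess of heart rpm (interval 9.54 to 10.2), above the 7.89 of heart members, and the mean in the midbrain library was 0.473 rpm against 0.597 rpm at members. The 1283 isolated midbrain-only peaks had a 4.71-fold excess of midbrain rpm (interval 4.44 to 4.99), above the 3.20 of midbrain members, and the mean in the heart library was 0.722 rpm against 1.04 rpm at members. Own-library levels differed little, at a mean of 4.68 rpm at isolated and 4.71 rpm at member heart peaks, and 3.40 rpm and 3.31 rpm at isolated and member midbrain peaks. In the other library, peaks in dense chains had values near those of members. The mean was 0.585 rpm of midbrain reads at the 271 heart and 1.06 rpm of heart reads at the 212 midbrain peaks, of which 51 and 45 have an opposite peak within 50 kb. The own-tissue excess in dense chains was 9.14-fold at heart (interval 8.45 to 9.90) and 3.86-fold at midbrain peaks (interval 3.43 to 4.36), between members and isolated peaks. The other tissue-only peaks, with a neighbour in their own list, had an excess of 9.27-fold and 4.61-fold, and means of 0.531 and 0.777 rpm in the other library. In the other library's reads, the difference from isolated peaks is thus not shown to be particular to members. Peaks of 1 neighbourhood share their surroundings and are not independent, so these intervals are too narrow for a comparison between groups of peaks, and no test of it was made.

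Summed by distance to the opposite peak, the ratios were lowest at short distances. Heart members within 5 kb of a midbrain-only peak had a 5.57-fold excess of heart rpm (interval 4.81 to 6.45, 66 peaks) and 71.2% had an interval on the heart side. At 5 to 10, 10 to 25 and 25 to 50 kb the ratio was 8.44, 8.21 and 8.77, with overlapping intervals. The excess of midbrain rpm at midbrain members was 2.41-fold within 5 kb (interval 2.0 to 2.94, 73 peaks), 2.45 at 5 to 10 kb (interval 1.97 to 3.08), 3.26 at 10 to 25 kb (interval 2.79 to 3.82) and 4.0 at 25 to 50 kb (interval 3.45 to 4.66). Their median own reads were 16, 15, 17 and 17 in the same order, and those of heart members were 5.5, 6, 5 and 6. Among the mutual nearest pairs described below the difference was small at midbrain peaks, with a 2.92-fold excess within 5 kb (interval 2.33 to 3.71) and 3.22-fold beyond (interval 2.89 to 3.6). Across those 320 pairs the Spearman correlation of the distance with the heart over midbrain reads at the midbrain peak was -0.04. With the midbrain reads at the heart peak it was -0.16. Counting intervals do not cover the variation between peaks.

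**Figure D4:**
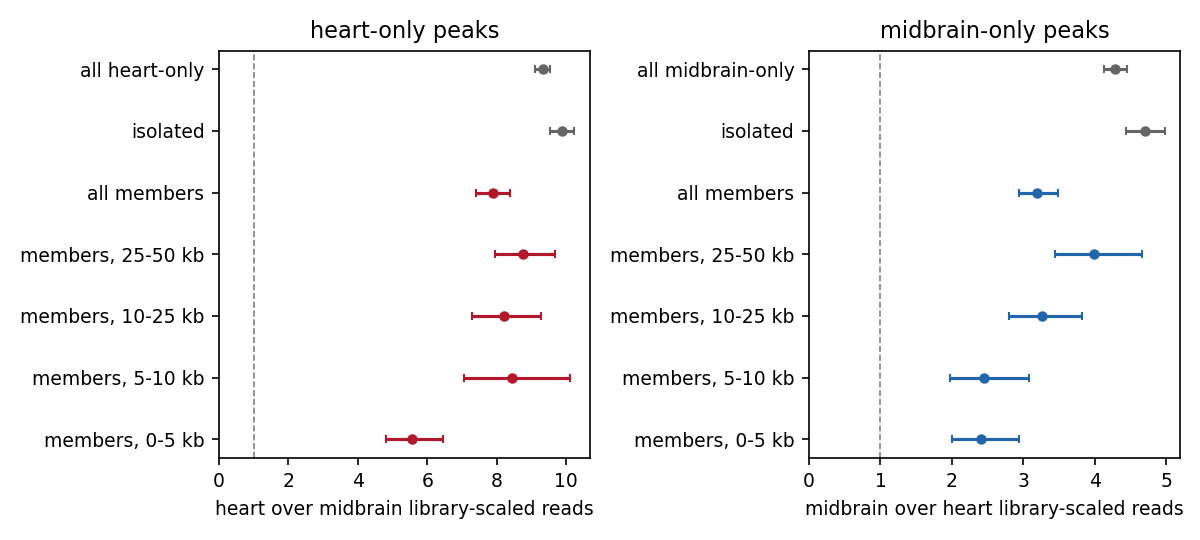
Own-tissue over other-tissue ratio of library-scaled reads (x axis, linear) summed over groups of heart-only (left) and midbrain-only peaks (right), with bars for the exact 95% interval of counting error and a dashed line at 1. Members lie lower (7.89 and 3.20) than isolated peaks (9.88 and 4.71), and members within 5 kb of an opposite peak lie lowest (5.57 and 2.41).

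The surroundings of the members also held more reads of both libraries than those of isolated peaks. In the zone 20 to 50 kb away from heart members, with pieces that touch a listed peak left out, heart reads were 1.21 times as dense as around isolated heart-only peaks (interval 1.19 to 1.23) and midbrain reads 1.24 times as dense (interval 1.23 to 1.25). Around midbrain members the heart reads were 1.43 times as dense (interval 1.41 to 1.45) and the midbrain reads 1.10 times as dense (interval 1.09 to 1.11) as around isolated midbrain-only peaks. In the own library such an excess was also found elsewhere: 1.51 times around heart peaks in dense chains and 1.19 times around the other heart-only peaks, and 1.43 and 1.15 times around the corresponding midbrain peaks. In the other library it was smaller there than around members. Midbrain reads were 1.05 times as dense around heart peaks in dense chains (interval 1.04 to 1.06) and 1.01 times around the other heart-only peaks. Heart reads were 1.22 times as dense around midbrain peaks in dense chains (interval 1.19 to 1.25) and 1.07 times around the other midbrain-only peaks. Set against the zone 20 to 50 kb away, the other tissue's reads stood out at members about as much as at isolated peaks. Midbrain reads were 1.70 times as dense within heart members as 20 to 50 kb away (interval 1.62 to 1.79), and 1.66 times within isolated heart-only peaks (interval 1.62 to 1.71). Heart reads were 2.06 times as dense within midbrain members (interval 1.89 to 2.24) and 2.03 times within isolated midbrain-only peaks (interval 1.91 to 2.15). Own-tissue reads were 10.9 times as dense within heart members (interval 10.4 to 11.3) against 13.0 times within isolated heart-only peaks, and 8.19 times within midbrain members (interval 8.01 to 8.38) against 9.17 times within isolated midbrain-only peaks. Over flanks 5 to 10 kb away with nothing left out, heart reads were enriched 9.22 times at heart and 1.69 times at midbrain members, and midbrain reads 6.81 times at midbrain and 1.49 times at heart members. On those nearer flanks the other tissue's enrichment was lower at members than at isolated peaks. At isolated peaks it was 1.63 for midbrain reads at heart-only and 2.01 for heart reads at midbrain-only peaks (interval 1.89 to 2.14). The rule sets this in part, since listed peaks can lie in the flanks of members and none lies in those of isolated peaks. With pieces that touch a listed peak left out, it was 1.63 at heart members (interval 1.55 to 1.72) and 1.89 at midbrain members (interval 1.73 to 2.07). The value varied with the distance to the opposite peak. On these flanks, with the same pieces left out, midbrain reads were enriched 2.20 times at heart members within 5 kb of a midbrain-only peak (interval 1.95 to 2.47). It was 1.32, 1.56 and 1.56 times at 5 to 10, 10 to 25 and 25 to 50 kb. For heart reads at midbrain members the 4 values were 2.21 (interval 1.80 to 2.69), 1.91, 1.90 and 1.73. The part of the denser surroundings in the other tissue's reads at members was not tested.

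Reads of the other tissue leaned towards the opposite peak, a lean that the choice of side sets in part, since the opposite peak was listed from the same reads and has to lie within 50 kb. From 2 to 10 kb, midbrain reads around heart members were 1.26 times as dense on the side of the nearest midbrain-only peak as on the far side (interval 1.23 to 1.29), and heart reads around midbrain members were 1.35 times as dense on the side of the nearest heart-only peak (interval 1.28 to 1.41). With pieces that touch any listed peak of either list left out, the values were 1.10 (interval 1.07 to 1.13) and 1.15 (interval 1.09 to 1.21). The own library leaned less, by 1.04 around heart members (interval 0.991 to 1.09) and 1.05 around midbrain members (interval 1.02 to 1.08), in the same comparison.

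**Figure D5:**
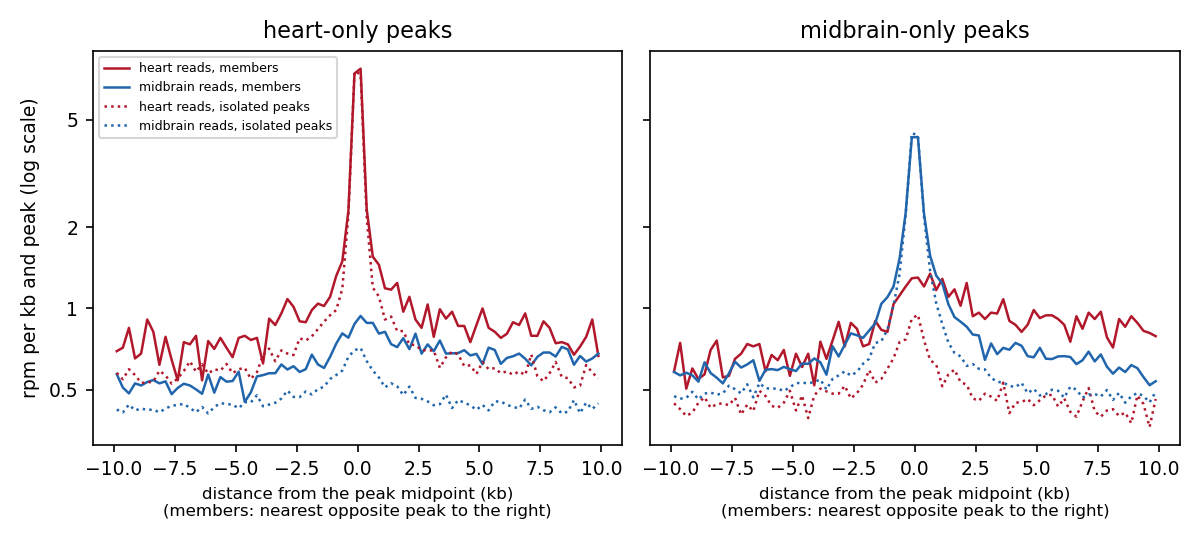
Mean read density (y axis, rpm per kb and peak, log scale) by distance from the peak midpoint (x axis, kb, 250 bp steps) at heart-only (left) and midbrain-only peaks (right), with heart reads in red, midbrain reads in blue, members as solid and isolated peaks as dotted lines. Members are turned so that the nearest opposite peak lies to the right, and the other library's line is higher on that side (by 1.26 and 1.35 times from 2 to 10 kb).

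To compare sites one by one, each heart member was matched to a midbrain member where each was the other's nearest opposite member, which gave 320 pairs with a median distance of 18.6 kb. In 304 of the pairs heart reads were more numerous at the heart peak and midbrain reads at the midbrain peak. Heart reads were tied in 9 pairs and fewer at the heart peak in 6, and midbrain reads were fewer at the midbrain peak in 1. These counts are fixed in large part by the lists. In 43 pairs (13.4%) both intervals lay on their own side, in 26 neither did, and in 5 only the midbrain peak's did. The strength of the partners showed little relation: across the 320 pairs the Spearman correlation of heart reads at the heart peak with midbrain reads at the midbrain peak was -0.07, a description over sites that share 2 libraries. In 8 pairs both peaks ranked within the first 500 of their list.

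The clearest local switches were chosen after their values were seen, as the pairs with both intervals on their own side and the highest lower bounds. On chromosome 12 a heart peak at 29489950 to 29490452 (rank 2174) held 5 heart reads and 1 midbrain read. Its partner 12.2 kb away at 29501372 to 29503362, rank 11 of the midbrain list, held 84 midbrain reads and 1 heart read. Heart rpm was 22.5 times the midbrain rpm at the first (interval 2.52 to 1065), and midbrain rpm 18.7 times the heart rpm at the second (interval 3.26 to 746). On chromosome 1 a heart peak of rank 95 at 133022480 to 133023368 held 12 heart and 7 midbrain reads, and 47.4 kb away a midbrain peak of rank 101 at 132974862 to 132976259 held 47 midbrain reads and no heart read. On chromosome 2 the heart peak of rank 134 at 38391014 to 38392160 held 13 heart and 9 midbrain reads, and the midbrain peak of rank 34 at 38439913 to 38441864, 49.3 kb away, held 69 midbrain reads and 1 heart read. On chromosome 5 a heart peak at 68086783 to 68087523 held 5 heart reads and no midbrain read, and 39.1 kb away a midbrain peak at 68047316 to 68048803 held 46 midbrain reads and no heart read.

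At the other extreme, 12 pairs lay within 1 kb of each other, with gaps between the listed ends of 49 to 470 bp. In 10 of them the gap was under 300 bp, the length to which the authors drew out each read, so the same lengthened read can cover both peaks. Summed over the 12 pairs, the heart peaks took 70 heart and 58 midbrain reads, 5.43-fold in favour of heart (interval 3.78 to 7.83). The midbrain peaks took 167 midbrain and 14 heart reads, 2.65-fold in favour of midbrain (interval 1.54 to 4.95). Of the 12 heart peaks 7 had an interval on their own side, where 92.4% of all heart-only peaks did. Of the 12 midbrain peaks none did, where 22.7% of all midbrain-only peaks did, and with 12 peaks nothing is read from this. Whether such a pair is 2 sites or 1 site with shifted boundaries cannot be told from these reads.

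The closest pair was on chromosome 7, where a heart peak at 134888409 to 134888889 (6 heart and 2 midbrain reads) lay 67 bp before a midbrain peak at 134888957 to 134889406 (11 midbrain reads and 1 heart read). The deposited coverage, counted as lengthened reads over a point, reached 6 in the heart and 4 in the midbrain library at the first and 3 and 9 at the second. At chr15:59005099-59005567 a heart peak with 5 heart and 3 midbrain reads lay 162 bp from a midbrain peak with 17 midbrain reads and 1 heart read. At chr2:116801381-116801752 a heart peak with 4 heart reads and 1 midbrain read lay 49 bp from a midbrain peak at 116801802 to 116802786 with 22 midbrain and 4 heart reads, so the heart reads were equal at both peaks of this pair. On chromosome 13 the best-ranked heart member, rank 42 at 34919576 to 34920379, held 13 heart and 6 midbrain reads and lay 255 bp from a midbrain peak of rank 2489 with 10 midbrain reads and no heart read. The other 6 named close pairs lay at chr14:25598285-25599532, chr2:170046911-170048216, chr2:115210650-115212005, chr2:13306286-13307662, chr10:13702703-13704161 and chr15:25341017-25342642. Their heart peaks held 4 to 6 heart reads and 2 to 9 midbrain reads, and their midbrain peaks 10 to 18 midbrain reads and 0 to 2 heart reads.

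The members with the most reads of their own library came next. Among heart members the highest was at chr4:141092611-141094273 (rank 129), 1.57 kb from a midbrain peak, with 16 heart reads. It also held 18 midbrain reads, the most of any heart member, and its ratio was 4.0 (interval 1.91 to 8.31). The heart member at chr4:13192039-13193491 (rank 119) held 15 heart and 4 midbrain reads, 16.9 times as many rpm for heart (interval 5.38 to 69.9), and that at chr9:31060821-31062600 (rank 352) held 14 heart and 13 midbrain reads (ratio 4.85, interval 2.11 to 11.2). At chr13:46667409-46668435 and at chr5:77558803-77559977, heart members of rank 65 and 93 held 14 heart and 2 midbrain reads each (ratio 31.5, interval 7.24 to 286). At chr3:101865895-101866604 the member of rank 77 held 11 heart reads and no midbrain read, although a midbrain peak lay 6.51 kb away, and at chr2:167454131-167454768 that of rank 59 held 11 heart reads and 1 midbrain read.

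Among midbrain members the highest after the chromosome 12 peak with 84 reads was at chr13:52014846-52016773 (rank 10), with 83 midbrain and 2 heart reads and 9.22 times the heart rpm (interval 2.47 to 77.4). A heart-only peak lay 16.8 kb from it and another midbrain peak 2.04 kb. The widest midbrain member, 2711 bp at chr1:135958253-135960963 (rank 68), held 72 midbrain and 2 heart reads (ratio 8.0, interval 2.13 to 67.3). Those at chr4:97774437-97776367 (rank 44) and at chr2:131015628-131016845 (rank 27) held 65 and 56 midbrain reads and 3 and 2 heart reads. With the midbrain peak of the chromosome 2 pair at 38439913 to 38441864 these make up the named midbrain members.

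Some midbrain members held at least as many rpm of heart as of midbrain reads. In 20 of 420 (4.76%) the heart rpm was at least the midbrain rpm, against 77 of all 2631 midbrain-only peaks (2.93%). The most heart reads, 12, fell in the midbrain member at chr11:11720429-11722241, of rank 507, with 37 midbrain reads (midbrain over heart ratio 0.685, interval 0.349 to 1.44), and heart members lay on both sides of it, the nearest at 9.34 kb. The member at chr19:5846568-5847242 held 9 heart and 16 midbrain reads (0.395 times as many rpm for midbrain, interval 0.164 to 1.01), and that at chr3:95463460-95464336 held 8 and 19 (ratio 0.528, interval 0.221 to 1.39). These 3 were chosen after their values were seen. All 3 intervals include 1, and a peak absent from the heart list need not lack p300 in the heart. No heart member had as many rpm in the midbrain as in the heart library, and neither did any of all 3443 heart-only peaks.

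In median rank, width and height the members differed little from the tissue-only peaks as a whole. The median rank was 1795 for heart members and 1479 for midbrain members, against 1828 and 1406 for all heart-only and midbrain-only peaks, and rank 500 or better was held by 10.9% and 14.3% of members against 13.1% and 17.4%. The median width was 662 bp for heart and 734 bp for midbrain members, against 658 and 739 bp. The highest coverage within a peak, in lengthened reads and not scaled to depth, had a median of 4 in the heart library at heart members and 9 in the midbrain library at midbrain members, against 4 and 10 in all. A peak common to both lists lay within 50 kb of 33 heart members (7.47%) and 25 midbrain members (5.95%), against 2.88% of all heart-only and 3.53% of all midbrain-only peaks. These baselines hold the isolated peaks, for which the share is 0 by definition. In the dense chains the share was 12.9% for heart and 13.7% for midbrain peaks, and among the other tissue-only peaks (with a neighbour in their own list) it was 2.98% and 5.45%. In all, 14 of the 330 neighbourhoods (4.24%) had such a common site inside their span.

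Mixed neighbourhoods were found on every autosome and on chromosome X, though in unequal numbers. Chromosome 2 held the most, 34 neighbourhoods with 54 heart and 51 midbrain members, which is 19.4% of its heart-only peaks (interval 14.9 to 24.5) and 22.6% of its midbrain-only peaks (interval 17.3 to 28.6). Chromosome 4 followed with 31 neighbourhoods, 45 heart members (18.8%) and 40 midbrain members (20.2%). The lowest autosomal share of heart-only peaks was 7.28%, on chromosome 17 (11 of 151), and chromosome X held 1 neighbourhood with 1 member of each kind among its 21 heart-only and 27 midbrain-only peaks. Members of 1 neighbourhood come together, so the intervals are too narrow, and whether chromosomes differ was not tested.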

How the data were processed

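p300 ChIP-seq of 1 heart and 1 midbrain library was used as deposited. Positions are on mm9, a build named in the submitters' processing notes and per the file headers. The authors deposited aligned reads lengthened to 300 bp, coverage (signal as whole numbers of lengthened reads per 25 bp step, not scaled to depth) and peak lists with a rank and no score. Peak caller, threshold and control are not given in the sources used here. Reads were placed at their 5 prime end moved by 43 bp (heart) or 32 bp (midbrain), taken from strand offsets of 87 and 65 bp. The strand profile was nearly flat, so these are shifts and not fragment lengths. Shares carry exact Clopper-Pearson and ratios exact conditional binomial 95% intervals. The ratio intervals were run on simulated independent counts, where they hold by construction, so that run checked the calculation only. The intervals treat each read as 1 molecule, which PCR without molecular identifiers does not ensure, and cover counting error only. Flanks were 5 to 10 kb or 20 to 50 kb from a peak, in 500 bp pieces where listed peaks were left out.

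The members were chosen with earlier results of these data known. Named items are the 10 neighbourhoods with the most members (ties: the smallest heart to midbrain distance), up to 10 pairs within 1 kb, and per tissue the 5 members with the most own reads and the 5 best ranked, with none on chromosome 18. Gene annotation and genome sequence of mm9 were not used here, so the planned descriptions of genes and motifs were not made. Scripts ran under Python 3.11.15 with scipy 1.17.1, numpy 2.4.6, networkx 3.6.1, pandas 2.3.3 and matplotlib 3.10.9.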

Additional observations from a re-analysis of the deposited data

How the results depend on the processing

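Of 60 alternative values, 31 lay inside the reported 95% interval (member counts, inside 1.5 times the reported count), 29 moved and none changed direction, which says little since the lists fix the direction. A distance of 25 kb left 254 heart and 257 midbrain members, with ratios of 7.33 and 2.81, 10.9% of midbrain members on the midbrain side and a midbrain read enrichment over flanks of 6.49 at midbrain members. A distance of 100 kb gave 728 and 687 members, a ratio of 3.51 at midbrain members, heart and midbrain read enrichments of 9.70 and 1.60 at heart members and a midbrain read enrichment of 7.02 at midbrain members. Ranks 1 to 2000 alone left 199 and 202 members. Moving reads by 150 bp gave a ratio of 2.87 and a midbrain read enrichment of 6.20 at midbrain members. A single random thinning of midbrain reads to the heart total gave a ratio of 8.71 at heart members (interval 7.74 to 9.82). It left 32.4% and 11.7% of heart and midbrain members on their own side. The spread between random draws was not measured. Counting within 500 bp of the midpoint gave ratios of 5.69 and 2.62 and 79.6% of heart members on the heart side. Under the alternatives, shares on the own side were computed for members only and have no baseline over all tissue-only peaks. Flanks of 2 to 5 kb gave enrichments of 8.03 for heart reads at heart members, 1.54 for heart reads at midbrain members and 5.97 for midbrain reads at midbrain members. With listed peaks left out of the flanks, heart and midbrain reads were enriched 10.1 and 1.63 times at heart members and 1.89 and 7.16 times at midbrain members. The cause was not tested beyond what each alternative sets (other members, regions, depth or a random draw). No paired analysis was possible because each tissue has 1 library.

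Depth limits single peaks: the median heart member rests on 6 heart reads, and a count of 0 allows 3 reads.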
